A study of Felis catus with 15 samples.

Results

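The genes described are 10 of the 38995 in the count table: ATF4, the transcription factor at the centre of the integrated stress response, and ATF5, ATF3, DDIT3, TRIB3, CHAC1, SESN2, ASNS, PSAT1 and PHGDH, which ATF4 is known to regulate or act with. They were taken from a list of symbols, and 10 of 10 were found in the table through their NCBI gene identifiers. The list was drawn up with results of these same libraries known, including that TRIB3, CHAC1, ASNS and ATF4 were higher in culture. For that reason the differences of these 10 genes from fresh tissue are given as a description with no p-value; how many passed the test in the fit of all genes is stated once, beside the same share of all genes. The comparison between both kinds of culture was taken as not used in choosing them and is tested. A filter on low counts kept 18038 genes and 10 of these 10, but TRIB3 had at most 9 counts in a fresh library and so passed on its cultured libraries.

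The tissue was corpus epididymis of Felis catus, the domestic cat; the epididymis is the duct where sperm mature and the corpus its middle part. Of 15 RNA-seq libraries, 5 were from fresh tissue (code D0 in the labels), 5 from explants kept in culture (D3) and 5 from explants to which extracellular vesicles were added during culture (also D3). The vesicles, small membrane-bound particles, were of the caput, which lies upstream of the corpus. The question was which corpus transcripts respond to caput vesicles, and fresh tissue served as the control. The labels give no strain, age, medium, vesicle dose or meaning of the D codes, and do not tie a replicate number to an animal, so a p-value here measures only how much these libraries vary, which may be technical. Libraries are named by group and replicate number below, such as fresh 4 or vesicles 2.

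The integrated stress response starts when a member of a small set of kinases phosphorylates the translation factor eIF2. General translation then slows while a few messages with upstream reading frames, ATF4 among them, are translated better, and ATF4 switches on genes for amino acid synthesis and uptake, tRNA charging and redox balance. In a secretory epithelium such as the epididymis the kinase PERK links the response to protein folding in the endoplasmic reticulum, whereas GCN2 reads amino acid shortage. Much of the control of ATF4 itself lies in translation, which RNA-seq does not measure.

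Total counts per library were between 17308832 and 27420218. Culture 3 stood apart, with 0.179% of its counts in mitochondrially encoded genes against 6.23% to 7.48% in the other cultures, and it lay above the other 4 cultures in 32.5% and below them in 37.7% of all tested genes. Fresh 4 was the highest fresh library for ATF4, ATF3, DDIT3 and CHAC1. Results that rest on either library are given with and without it. Markers moved with culture as well. The summed level of 10 principal cell markers, among them NPC2, CRISP1 and AQP9, was 32793 to 43960 CPM (counts scaled to one common library size) in the fresh libraries, 1012 to 3239 CPM in culture and 2132 to 3458 CPM with vesicles, while 5 of 6 basal cell markers (KRT14 had no match) summed to 326 to 581, 1830 to 6416 and 1536 to 4588 CPM and 6 fibroblast markers to 517 to 2006, 1234 to 12291 and 943 to 8577 CPM. None of the markers in these 3 lists was at 0 in a whole group. Their part in the differences below was not tested, and in bulk tissue fewer cells of a type and less RNA per cell cannot be told apart.

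Of the transcription factors, ATF5 and ATF4 were higher in both kinds of culture than in fresh tissue, DDIT3 was higher by less, and ATF3 was too uneven between fresh libraries to place. All values are CPM on TMM-scaled library sizes, listed in the order of replicates 1 to 5. ATF4 (gene 101084297) was at 295, 280.4, 304, 451 and 253 CPM in fresh tissue, at 363, 518, 687, 438 and 538 CPM in culture, and at 446, 534, 464, 433 and 461 CPM with vesicles. Fresh 4 reached into the range of the cultured libraries, and the other 4 fresh libraries were below every cultured one. The log2 fold change from fresh tissue was 0.68 ± 0.18 (SE) in culture and 0.56 ± 0.18 with vesicles.

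ATF5, a related factor whose translation is also raised when eIF2 is phosphorylated (gene 101092906), was at 7.46, 4.46, 5.94, 5.20 and 5.26 CPM in fresh tissue. Culture gave 21.9, 32.6, 42.1, 26.9 and 18.4 CPM, and culture with vesicles 20.8, 26.4, 23.7, 16.4 and 21.6 CPM. The fresh values did not overlap with the cultured ones, and the log2 fold changes were 2.32 ± 0.23 in culture and 1.94 ± 0.23 with vesicles. DDIT3, or CHOP, a factor tied to cell death under lasting stress (gene 101081819), was at 24.9, 17.9, 24.6, 48.9 and 19.4 CPM in fresh tissue, 34.2, 44.7, 35.2, 39.3 and 47.3 CPM in culture, and 38, 37.3, 31.2, 29.9 and 34.4 CPM with vesicles. Fresh 4 was above all 10 cultured libraries for DDIT3 and the other 4 fresh libraries were below them. With all libraries the log2 fold changes were 0.57 ± 0.23 and 0.33 ± 0.23, and without fresh 4 the value with vesicles was 0.66.

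ATF3, a stress-induced factor that often represses transcription (gene 101099925), was at 98.8, 31.5, 111, 677 and 13.0 CPM in fresh tissue. Culture gave 39.4, 52.7, 88.3, 58.5 and 104 CPM, and culture with vesicles 55.1, 53.7, 58.6, 58.0 and 51.6 CPM. The lowest and the highest of the 15 values were both fresh libraries, and the vesicle group was the tightest of the 3. The log2 fold change in culture was -1.44 ± 0.73 with all libraries and 0.11 without fresh 4, and with vesicles it was -1.75 ± 0.73 and -0.20 in turn, so the size of the difference rests on that library.

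**Figure D1:**
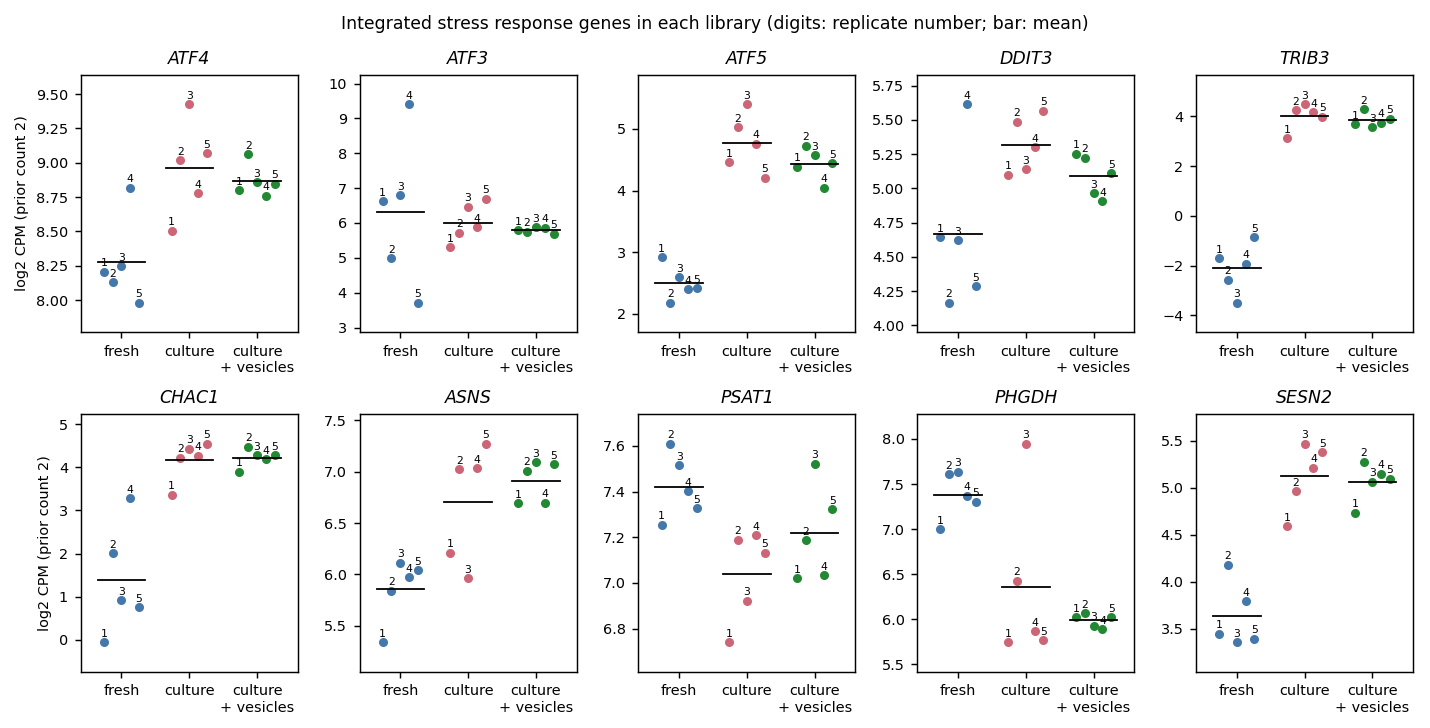
Level of each of the 10 genes in each library as log2 CPM (prior count 2), with fresh tissue, culture and culture with vesicles side by side, 1 point per library and a bar at the group mean. TRIB3, ATF5 and SESN2 have fresh points apart from all cultured points, ATF3 is spread widely in fresh tissue, and PHGDH in culture has 1 point, culture 3, above all fresh ones.

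Of the effectors of the response, TRIB3, CHAC1 and SESN2 were higher in both kinds of culture, and TRIB3 differed most of the 10 genes. TRIB3, a pseudokinase that binds ATF4 and AKT and dampens the response (gene 101083255), had 5, 2, 0, 3 and 9 counts in the 5 fresh libraries, or 0.219, 0.0803, 0, 0.173 and 0.464 CPM. It was at 8.67, 19.1, 22.3, 17.9 and 15.8 CPM in culture and at 12.8, 19.5, 11.7, 13.3 and 14.8 CPM with vesicles. The lowest cultured library was thus far above the highest fresh one. The fitted difference was 89.7-fold in culture (log2 6.49 ± 0.51) and 77.4-fold with vesicles (log2 6.27 ± 0.51). Because it is set against so few fresh counts it moved to 7.12 and 6.91 on the log2 scale without fresh 5, the library with most of them.

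CHAC1, an enzyme that breaks down glutathione (gene 101085130), was at 0.878, 3.93, 1.80, 9.70 and 1.60 CPM in fresh tissue, at 10.2, 18.6, 21.5, 19.2 and 23.4 CPM in culture and at 14.8, 22.3, 19.4, 18.1 and 19.3 CPM with vesicles. The groups did not overlap, although fresh 4 came close to culture 1. CHAC1 was 5.22-fold higher in culture (log2 2.38 ± 0.49) and had a log2 fold change of 2.40 ± 0.49 with vesicles. Without fresh 4 these became 3.17 and 3.19. SESN2, a leucine-binding protein that restrains the growth kinase mTORC1 (gene 101091128), was at 10.8, 18.0, 10.2, 13.7 and 10.4 CPM in fresh tissue, at 24.0, 31.1, 44.2, 37.0 and 41.5 CPM in culture and at 26.5, 38.6, 33.4, 35.4 and 34.1 CPM with vesicles. All cultured libraries exceeded all fresh ones, with log2 fold changes of 1.49 ± 0.20 and 1.41 ± 0.20.

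The 3 biosynthetic enzymes went different ways. ASNS, which makes asparagine from aspartate (gene 101096050), was at 40.5, 57.2, 69.2, 62.7 and 65.9 CPM in fresh tissue, 74.0, 130.2, 62.2, 131 and 155 CPM in culture and 103, 129, 136, 104 and 135 CPM with vesicles. Only culture 3 fell within the fresh range, and the log2 fold changes were 0.90 ± 0.23 in culture and 1.04 ± 0.23 with vesicles. PHGDH, the first enzyme of serine synthesis (gene 101088505), was instead lower: 128, 195, 199, 165 and 158 CPM in fresh tissue against 53.6, 86.1, 247, 58.4 and 54.3 CPM in culture and 64.9, 67.1, 60.9, 59.1 and 64.9 CPM with vesicles. Culture 3 alone stood above the fresh libraries, and the other 9 cultured libraries lay below them. Its log2 fold change was -0.76 ± 0.35 in culture with all libraries, -1.41 without culture 3, and -1.41 ± 0.36 with vesicles.

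PSAT1, the enzyme after PHGDH in the same route (gene 101095525), differed least. It was at 153, 195, 183, 169 and 161 CPM in fresh tissue, 107, 146, 121, 148 and 140.2 CPM in culture and 129.8, 146, 184, 131 and 160.0 CPM with vesicles. Culture was below fresh tissue in all libraries, by -0.38 ± 0.13 on the log2 scale, and the vesicle group overlapped with fresh tissue (-0.20 ± 0.13).

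Counted by edgeR's quasi-likelihood test at an adjusted p under 0.05, 7 of the 10 genes were higher in culture than in fresh tissue and 1 was lower (PSAT1), with ATF3 and PHGDH not called, where 28.7% of all tested genes were higher and 25.6% lower (54.3% in all). With vesicles, 6 were higher and 1 was lower (PHGDH), beside 27.4% higher and 25.5% lower of all genes (52.9% in all), and ATF3, DDIT3 and PSAT1 were not called. In culture the DDIT3 call was lost in 17 of 25 other settings and the PSAT1 call in 4 of 25, while PHGDH was called in 4 of 25, among them without culture 3 and with the replicate number as a block (-0.97), and ATF3 in 2 of 25. With vesicles ATF3 was called in 4 of 25 and DDIT3 in 3 of 25. The genes were chosen on these comparisons, which also share their 5 fresh libraries, so the counts support nothing further. The median log2 fold change was 0.79 in culture and 0.80 with vesicles over the 10 genes, and 0.04 and 0.01 over all tested genes. Groups of 5 against 5 did not overlap for 4 genes higher in culture (ATF5, TRIB3, CHAC1 and SESN2) and 1 lower (PSAT1), beside 20.2% and 20.4% of all genes, and for the same 4 with ASNS higher and PHGDH lower with vesicles, beside 25.3% and 24% of all genes (49.2% in all).

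The comparison of culture with and without vesicles, the question of the series, showed no change that passed the test in any of the 10 genes. Their edgeR adjusted p was 1 in each case, 0 of 10 had an unadjusted p under 0.05, and the smallest unadjusted p was 0.0821, for PHGDH. DESeq2 and limma-voom with quality weights called 0 of 10 as well. Over all genes 0% were called by edgeR, and 183 of 18038 had an unadjusted p under 0.05. There were 269 with DESeq2, 237 with limma-voom with quality weights and 206 with edgeR and the replicate block. Each of these is below the share of 0.05 that chance alone would give in an exact test. A lack of calls here therefore does not show a lack of change. The 5 libraries with vesicles overlapped with the 5 cultures in 10 of 10 genes; over all genes 0.0499% had no overlap and were higher and 0.0333% lower, or 0.0832% together.

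The log2 differences, vesicles over culture, lay between -0.66 and 0.18, with 3 of 10 above 0. Their 95% intervals, from the fit by group without pairing, show what size of difference these data allow. They were narrowest for PSAT1, from -0.10 to 0.46, for ATF4, from -0.51 to 0.27, and for SESN2, from -0.50 to 0.34. ASNS ranged from -0.36 to 0.63, DDIT3 from -0.73 to 0.26 and ATF5 from -0.85 to 0.09, and TRIB3 more widely from -1.02 to 0.59. PHGDH (-1.42 to 0.11), CHAC1 (-0.99 to 1.02) and ATF3 (-1.86 to 1.25) also had wide intervals, that of ATF3 the widest. PHGDH had the lowest point estimate, -0.66 ± 0.35, and this became 0.01 without culture 3, the single culture library with high PHGDH. With the replicate number as a block, which pairs both cultures, PHGDH was at -0.40 ± 0.30. The smallest unadjusted p of the 10 genes in that edgeR fit was 0.112, for ATF5 (-0.35 ± 0.21). The standard deviation of log2 CPM between libraries was smaller with vesicles than in culture for 9 of the 10 genes, and for 77.3% of all tested genes. Without culture 3 these were 10 of 10 and 55.3%.

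**Figure D2:**
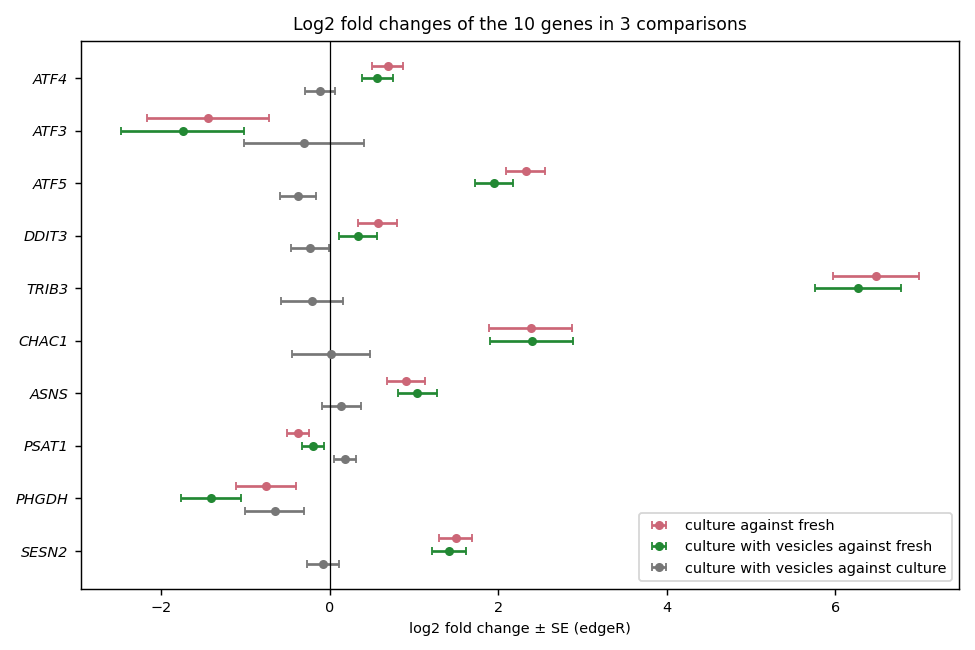
Log2 fold change of each of the 10 genes with its standard error as the bar, 5 libraries per group, for culture over fresh tissue, culture with vesicles over fresh tissue, and culture with vesicles over culture. TRIB3 lies farthest from 0 in both comparisons with fresh tissue (6.49 and 6.27), and the grey points of vesicles against culture lie between -0.66 and 0.18.

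Other genes of the pathway were described from lists that were also drawn up with earlier results known. Many of those named were picked by their p or value in culture against fresh tissue. Their adjusted p values thus only describe that comparison and are no independent support. Called means an edgeR adjusted p under 0.05 over all 18038 tested genes, and values are log2 fold changes ± SE of culture against fresh tissue with 5 libraries per group unless stated. The counts stand beside 28.7% of all tested genes higher and 25.6% lower in culture. In vesicles against culture 0 genes of any list were called. Upstream, the response's kinases, the eIF2 subunits and the feedback phosphatase had 3 of 13 genes higher, 2 lower and 8 not called (median 0.08), near or below the shares over all genes. One of the lower genes, the mitochondrial protease OMA1, lost its call without fresh 4 or fresh 5 (-0.78). PERK (EIF2AK3) was at -0.17 ± 0.16 (edgeR adjusted p = 0.382), and GCN2 (EIF2AK4) fell by 0.48 on the log2 scale (SE 0.15, edgeR adjusted p = 0.0129). PKR (EIF2AK2), a kinase activated by double-stranded RNA, rose by 1.38 ± 0.43 (edgeR adjusted p = 0.0134), a call that was lost without culture 5 (0.88, adjusted p = 0.0578). EIF2S3, a subunit of eIF2, rose by 0.72 ± 0.11 (edgeR adjusted p = 4.87e-05) and PPP1R15B, a partner of the phosphatase that removes the phosphate from eIF2, by 0.47 ± 0.14. GADD34 (PPP1R15A), the stress-induced partner, was at -0.73 ± 0.40 (edgeR adjusted p = 0.137). It passed the test without culture 3, at -1.16, and without culture 3 and fresh 4 together, at -0.63. With vesicles against fresh tissue its call was lost without fresh 4 (-0.70). Of 5 genes of eIF2B, the exchange factor that phosphorylated eIF2 blocks, 1 was higher (EIF2B1 0.36 ± 0.11, edgeR adjusted p = 0.00898) and 0 lower.

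Around PHGDH and PSAT1, the serine and one-carbon list went both ways. Of its 11 genes 7 rose and 4 fell (median 1.77), and none was left uncalled. PSPH, the last enzyme of serine synthesis, was at 6.34 to 13.5 CPM in fresh tissue and at 22.4 to 45.6 CPM in culture. That was a rise of 1.85 ± 0.23 (edgeR adjusted p = 9.98e-06). PHGDH at the head of the route was at -0.76 ± 0.35 and not called with all libraries, culture 3 lying above every fresh library. Without culture 3 it was at -1.41. Among enzymes of folate metabolism, the mitochondrial ones named here rose: SHMT2 by 2.54 ± 0.20 (edgeR adjusted p = 1.11e-07), ALDH1L2 by 4.97 ± 0.58, MTHFD2 by 1.93 ± 0.30 (adjusted p = 7.53e-05) and MTHFD1L by 1.77 ± 0.19. The cytosolic SHMT1 (-0.89 ± 0.18) and MTHFD1 (-0.98 ± 0.15) fell (adjusted p of 0.000567 or less). SHMT2 was at 17.3 to 21.0 CPM in fresh tissue, 75.5 to 147 CPM in culture and 84.5 to 149 CPM with vesicles, with no overlap between fresh and cultured libraries. The proline enzyme PYCR1 rose by 2.91 ± 0.35. CBS (-2.12 ± 0.28) and CTH (-2.36 ± 0.38), which turn homocysteine into cysteine, fell (adjusted p = 1.53e-05 and 9.26e-05). CTH was at 94.1 to 117 CPM in fresh tissue, 5.76 to 43.4 CPM in culture and 17.5 to 38.3 CPM with vesicles.

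**Figure D3:**
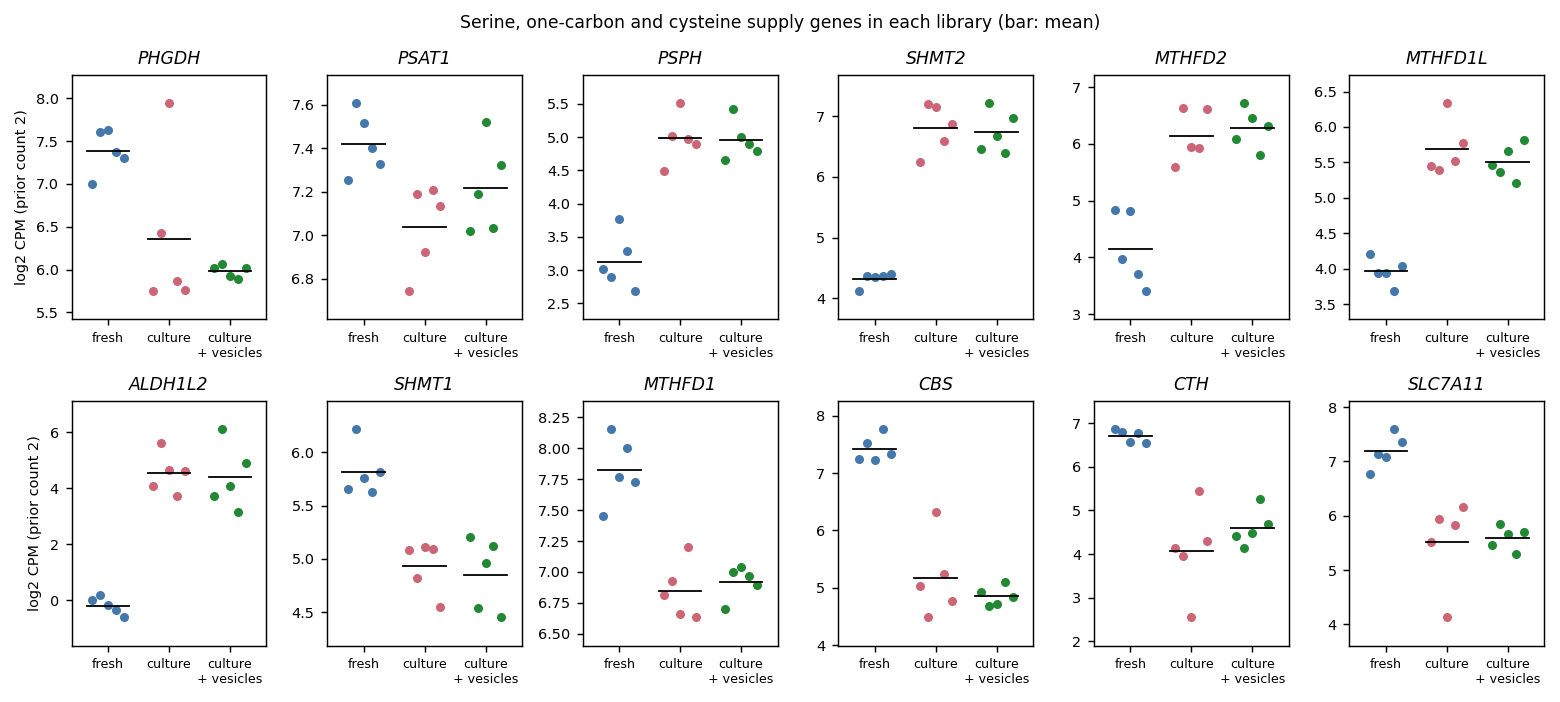
Log2 CPM (prior count 2) of 12 genes of serine synthesis, folate one-carbon metabolism and cysteine supply in each library, by group, with a bar at the mean. PSPH and the mitochondrial genes SHMT2, MTHFD2, MTHFD1L and ALDH1L2 are higher in both cultures than in fresh tissue, and SHMT1, MTHFD1, CBS, CTH and SLC7A11 are lower.

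Amino acid transporters under ATF4 had 7 of 9 genes higher and 2 lower (median 1.81). SLC1A5, a carrier of glutamine and other neutral amino acids, was at 7.16 to 13.4 CPM in fresh tissue and 76.3 to 125 CPM in culture, a rise of 3.40 ± 0.20 (edgeR adjusted p = 8.55e-09). SLC1A4 rose by 3.90 ± 0.37 and the arginine and lysine carrier SLC7A1 by 1.81 ± 0.19. SLC7A11, the cystine carrier that supplies glutathione synthesis, fell from a range of 109 to 193 CPM in fresh tissue to one of 17.4 to 71.8 CPM in culture (-1.55 ± 0.28, edgeR adjusted p = 0.000282). SLC7A3, another cationic carrier, fell by 3.93 on the log2 scale (SE 0.73), a value that rests on only 21 counts over all cultures, against 308 in fresh tissue.

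Of the cytosolic tRNA synthetases, which load tRNAs with amino acids, 15 of 20 rose, 1 fell and 4 were not called (median 0.59). WARS1 rose by 1.98 ± 0.20, SARS1 by 1.45 ± 0.10 and GARS1 by 1.40 ± 0.14 (adjusted p of 1.47e-06 or less), and FARSA fell by 0.62 (SE 0.17). The mitochondrial synthetases had 2 of 17 higher, 3 lower and 12 not called (median -0.01), beside 28.7% and 25.6% of all genes. One of those higher, MARS2, lost its call in 14 settings, for example without culture 4 (0.43). Others were EARS2 at -1.67 ± 0.15, HARS2 at -0.52 ± 0.12 and PARS2 at 0.56 ± 0.14, which were called.

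Further targets of ATF4 or DDIT3 had 13 of 20 genes higher, 4 lower and 3 not called (median 1.54). DDIT4, an inhibitor of mTORC1, was at 45.8 to 52.7 CPM in fresh tissue and 422 to 1336 CPM in culture (3.86 ± 0.29, edgeR adjusted p = 7.51e-08). The secreted glycoprotein STC2 rose by 5.09 ± 0.40 and the angiogenic factor VEGFA by 3.35 ± 0.33 (adjusted p of 8.54e-07 or less), both also known to respond to low oxygen. The cytokine GDF15 was near the limit of detection: 6 counts in fresh 2 and 0 in the other 4 fresh libraries, against 1.22 to 2.28 CPM in culture and 1.24 to 2.69 CPM with vesicles. FGF21, a hormone induced by ATF4 in liver, was left out by the low-count filter, with 0 counts in fresh tissue, 29 in culture and 34 with vesicles. HERPUD1 (-1.69 ± 0.18), GPT2 (-1.37 ± 0.16), ATG12 (-0.91 ± 0.19) and GABARAPL1 (-0.51 ± 0.18) fell, and the GABARAPL1 call was lost without fresh 3, fresh 5 or culture 4 (-0.39 to -0.46). The last 2 act in autophagy and HERPUD1 in degradation of proteins from the endoplasmic reticulum.

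Genes of the folding branches of the endoplasmic reticulum, which IRE1 and ATF6 drive in parallel to PERK, went the other way from TRIB3 and CHAC1: 0 of 18 were higher, 17 were lower and 1 was not called, SEC61B at -0.35 ± 0.19 (median -1.53). The chaperone BiP (HSPA5) was at 2140 to 3204 CPM in fresh tissue, 659 to 1062 CPM in culture and 575 to 879 CPM with vesicles, a fall in culture of 1.48 on the log2 scale (SE 0.18, edgeR adjusted p = 8.41e-06). SYVN1, PDIA4 and DNAJC3 were at -1.96 ± 0.12, -1.90 ± 0.15 and -1.88 ± 0.15. Mitochondrial chaperones and proteases had 3 of 7 genes higher and 0 lower (median 0.23): HSPD1 1.32 ± 0.11, CLPP 1.12 ± 0.21 and LONP1 1.69 ± 0.38, the last at 0.97 without culture 3.

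The bZIP family of ATF4, whose members pair with each other, had 6 of 13 relatives higher, 1 lower and 6 not called (median 0.39). Over all genes 28.7% were higher and 25.6% lower. The lower relative was CREBRF, a call lost without fresh 5 (-0.46). CEBPD was 4.91-fold higher and CREBZF was at 0.39 ± 0.11. BATF3 was at 3.64 ± 0.76, set against only 14 counts in all fresh libraries together. It was at 3.04 without culture 3 and at 2.76 without culture 3 and fresh 4. CEBPB, a bZIP partner of ATF4 counted with its targets, rose by 2.82 ± 0.32 (edgeR adjusted p = 3.22e-06). The close copies of TRIB3, CHAC1 and SESN2 varied in direction. SESN1 (-1.10 ± 0.17), SESN3 (-0.80 ± 0.26) and CHAC2 (-1.03 ± 0.26) fell, TRIB2 rose by 1.61 ± 0.24, and TRIB1 was at 0.06 ± 0.33, or 0.65 and called without fresh 4.

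With vesicles, the same lists against the same fresh libraries had, in higher and lower genes, 7 and 4 of 11 for serine and one-carbon, 7 and 2 of 9 for transporters, 14 and 2 of 20 for cytosolic synthetases, 14 and 4 of 20 for further targets and 0 and 17 of 18 for the folding branches. Their medians were 1.55, 1.96, 0.54, 1.09 and -1.65 on the log2 scale, beside 0.01 over all genes, of which 27.4% were higher and 25.5% lower.

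**Figure D4:**
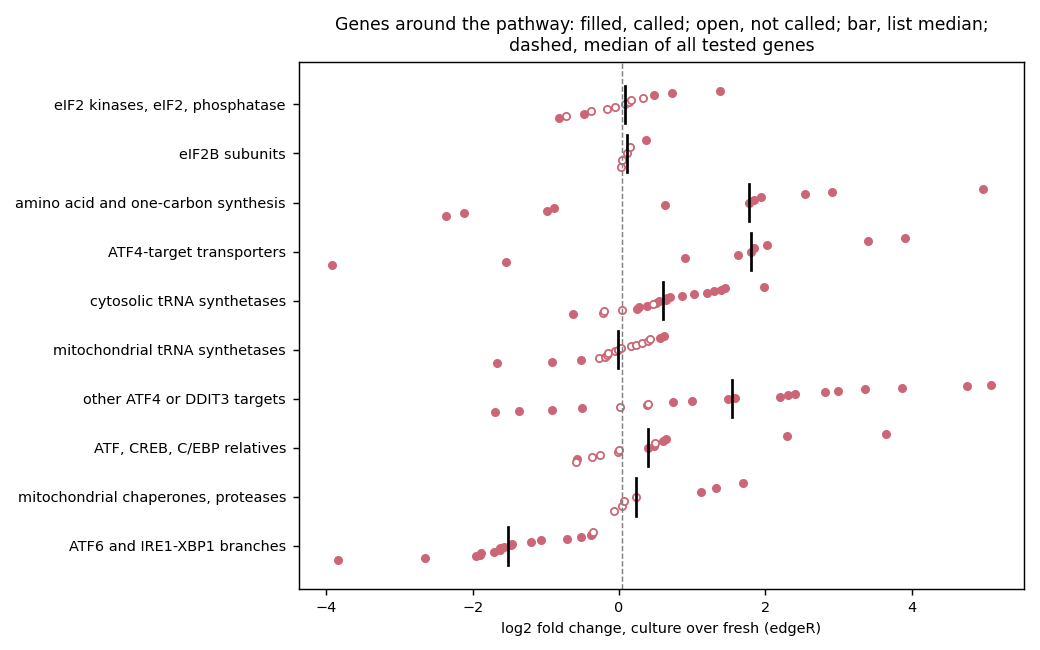
Log2 fold change of culture over fresh tissue for each tested gene of the pathway lists, 1 point per gene, filled where called (edgeR adjusted p under 0.05) and open where not, with a bar at each list's median and a dashed line at the median of all tested genes (0.04). Transporters and the serine and one-carbon list, labelled amino acid and one-carbon synthesis, lie mostly above 0, and the folding branch of the endoplasmic reticulum below 0 (medians 1.81, 1.77 and -1.53).

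Variation between libraries of the same group was examined after subtracting each group's mean log2 CPM, over 15 libraries. These correlations are a description: the libraries share processing and depth scaling, and 2 of them stand apart. Over the 45 pairs of the 10 genes r ran from -0.41 to 0.85 with a median of 0.14, and 36 pairs were positive. ATF3 and DDIT3 were closest (0.85), followed by ATF4 with ATF3 (0.75), ASNS with PSAT1 (0.71) and ATF4 with CHAC1 (0.68). Without culture 3 and fresh 4 the closest pairs were CHAC1 with SESN2 (0.85), ASNS with PSAT1 (0.76) and ATF4 with DDIT3 (0.75), and ATF3 with DDIT3 was at 0.67. ASNS with PHGDH was lowest over all 15 libraries, at -0.41, and was at 0.45 without culture 3, so its sign rests on that library. ATF4 had a median r of 0.54 with the other 9 genes and of -0.04 with all genes compared. Over all 15 libraries that was the highest of the 10, followed by CHAC1 (0.38), SESN2 (0.21) and PHGDH (0.13). ATF3 (0.10), DDIT3 (0.07), TRIB3 (0.07), PSAT1 (0.03), ATF5 (0.02) and ASNS (0.02) were near 0. With all genes compared, ASNS was at 0.04 and PSAT1 at 0.03. This order rests on culture 3 and fresh 4. Without both, ATF4 with CHAC1 was at 0.41. ASNS was then at 0.59 with ATF4 and 0.67 with CHAC1, and PSAT1 at 0.50 and 0.69. With ATF3 they stayed low, at 0.03 and 0.13. ATF4 was thus not set apart from ASNS and PSAT1 at that setting.

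**Figure D5:**
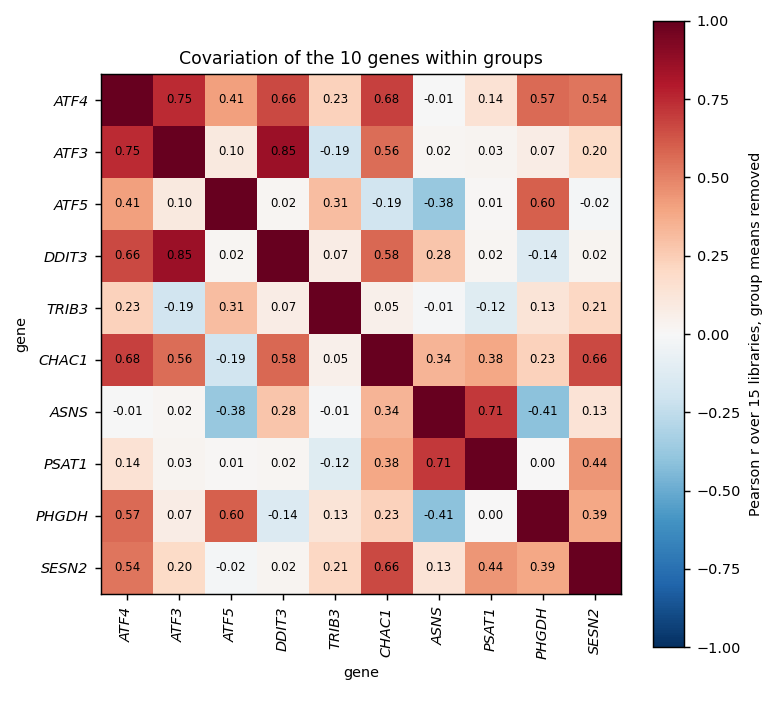
Pearson r between each pair of the 10 genes over deviations from the group mean of log2 CPM in all 15 libraries, red for positive and blue for negative values. ATF3 with DDIT3 (0.85) is the highest pair and ASNS with PHGDH (-0.41) the lowest, the latter at 0.45 without culture 3.

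Outside the 10 genes, those whose deviations were most like ATF4's among 12357 compared were NFIL3 (r = 0.93), a bZIP repressor, ZC3H12A (0.92), an RNase of inflammatory messages, the kinase SIK1 (0.90), TRAPPC3 (0.89) and CITED4 (0.89), and without culture 3 and fresh 4 their r was 0.68 to 0.78. For TRIB3 they were GRIP1 (0.86), MMP13 (0.81), CASP4 (0.79), the stress-induced NUPR1 (0.78) and CHP2 (0.78), where the fresh deviations rest on 0 to 9 counts. For ASNS they included EOGT, NSA2, IL6ST, GHITM (0.88) and NPC1 (0.88).

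Single libraries placed the 10 genes at the edge of their group unevenly. Culture 3 was the highest culture for ATF4, ATF5, TRIB3, PHGDH and SESN2 and the lowest for ASNS. Culture 1 was the lowest culture in 8 of 10 genes, against 10.6% of all tested genes, and also in 11 of 20 cytosolic tRNA synthetases and 5 of 11 serine and one-carbon genes. Fresh 4 was the highest fresh library in 4 of 10, against 21.8% of all genes, and its level of PPP1R15A, the GADD34 gene, was 548 CPM against 123 to 208 CPM in the other fresh libraries. Without fresh 4 the number of the 10 genes higher in culture with no overlap went from 4 to 6, adding ATF4 and DDIT3, beside 21.5% of all genes at that setting and 20.2% with all libraries.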

How the data were processed

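The authors deposited raw counts per gene for 15 libraries of total RNA, made with a stranded mRNA kit per the labels' protocols. StringTie 2.1.3b, Bowtie2 2.3.4.1, HISAT2 2.1.0 and Trimmomatic 0.38 appear without roles in the submitters' processing notes. Genome build, counting program and strand setting were not given in the sources used here, so no position is printed, and counts of overlapping genes or of close copies are uncertain. All 38995 identifiers matched the RefSeq gene table of F.catus_Fca126_mat1.0, used for names only, and the symbols KRT14, PRM1, HSPE1 and ATF7 of the lists had no match. Levels are not compared between genes, since no transcript length was used.

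Genes were filtered with filterByExpr (minimum count 10, minimum total 15) and tested in R 4.3.3 with edgeR 4.0.16: TMM scaling, quasi-likelihood fit of all 15 libraries by group with 12 residual degrees of freedom, 2-sided tests, and Benjamini-Hochberg adjustment over 18038 genes at 0.05. Each SE was obtained as |log2 fold change| over the root of the F statistic. The code was tested on simulated data. Alternatives were DESeq2 1.42.0, limma-voom 3.58.1 with quality weights, other scalings and filters, the replicate block, 2-group fits and leaving out each library. The quality weights give less weight to libraries that stand apart. Leaving out culture 3 and fresh 4 together was added after seeing the data. Replicate numbers come from the titles. Same-numbered deviations correlated at 0.181 to 0.602 between both cultures and at 0.242 to 0.362 between vesicles and fresh tissue, and so pair these groups.

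The 10 genes and all lists were chosen with earlier results of these data known. Named genes are the 10, 9 fixed pathway genes, and up to 3 called genes per list with the smallest p; PSPH, PYCR1, CBS, CTH, MTHFD1, SHMT1, EIF2AK2, SLC7A3, HERPUD1, GPT2, ATG12, GABARAPL1, FARSA, SEC61B, OMA1, MARS2, CREBRF, SESN3 and TRIB1 were added after their values were seen. For ATF4, TRIB3 and ASNS, the 5 genes with the highest r are named, among genes with a symbol and a mean log2 CPM of 1 or more.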

Additional observations from a re-analysis of the deposited data

Results flagged for a closer look

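Each of the 10 genes was checked in each group of 5 libraries for a library far from the others, by the gap to its nearest neighbour as a share of the group's whole range on the log2 CPM scale. Of 30 such groups 1 exceeded the 95% critical value of 0.71, and chance alone flags about 1 in 20. It was CHAC1 in culture 1, the lowest of its group, at 3.37 log2 CPM with the next culture at 4.22 (ratio 0.724). Culture 1 was the lowest culture for 8 of the 10 genes.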

How the results depend on the processing

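The counts of called genes stayed within 1.5 times their main values. Among the 10 genes, 7 to 9 were called in culture against fresh tissue over the settings other than leaving out 1 library and 6 to 9 when 1 library was left out, 7 to 8 in both cases with vesicles against fresh tissue, and 0 throughout in vesicles against culture. Over all genes the ranges were 8671 to 11036 and 9039 to 11090 in culture, 8873 to 11789 and 8833 to 11658 with vesicles, and 0 between the cultures. With the replicate block 10438, 10283 and 0 genes and 9, 7 and 0 of the 10 were called. The block turned PHGDH in culture into a call (-0.97), changed no other call among the 10, and moved ATF3 to -0.59 in culture and -0.91 with vesicles. Culture and fresh tissue missed the rule set for pairing, since 1 of 5 same-numbered correlations, that of culture 3, was under 0.1 (0.0326 to 0.344). Culture 3 correlated best with fresh 1 and the other 4 cultures with their own number. All 5 vesicle libraries correlated best with their own number in both culture and fresh tissue. The numbers thus link culture to fresh tissue through them as well. The main fit used the pairing in none of the comparisons. Changes of sign were counted apart where neither setting was called: 2 in culture against fresh tissue, both for ATF3 without fresh 4, and 19 between the cultures. Upper-quartile scaling moved the median of all genes with vesicles from 0.01 to -0.09. Limma-voom with quality weights gave ATF3 -0.46 in culture and -0.44 with vesicles. It put PHGDH at -1.48 in culture, a call, and at 0.08 in vesicles against culture. Low counts limit TRIB3, GDF15, FGF21 and BATF3 in fresh tissue and SLC7A3 in culture.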
